A study of Rattus norvegicus with 6 samples.

Results

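Collagens are the main structural proteins of the extracellular matrix, and each is built from α chains that wind around each other. Fibrillar collagens form the fibres of scar and stroma. Type IV collagen forms the sheet of basement membranes, type VI forms beaded filaments, and the fibril-associated collagens (FACIT) sit on the surface of fibres. In diabetic nephropathy, matrix rich in collagen builds up in the glomeruli and in the tubulointerstitium, and the glomerular basement membrane thickens. The chain genes were taken from the array by their symbols, of the form Col, number, a, number. Of 45 rat chain symbols that were sorted into 5 classes, 36 were measured on a row with a single gene symbol, among 18166 genes in all. The fibrillar class had 11 of 11 chains, type IV 5 of 6, the beaded filaments 3 of 6, FACIT 7 of 10, and the class of all other collagens 10 of 12. Col4a6, Col6a1, Col6a4, Col6a5, Col9a3, Col21a1, Col22a1, Col25a1 and Col28a1 were not analysed here.

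The 6 Affymetrix Rat Gene 2.0 ST arrays, 1 per rat, read kidney cortex RNA of male Sprague-Dawley rats aged 17 weeks. Streptozotocin, which destroys pancreatic β cells, was injected at 60 mg/kg into all 6 rats, and no rat without diabetes was analysed here. The 3 rats of the HQYDP group were gavaged with 300 mg/kg/day of Qishen Yiqi dripping pill, a Chinese herbal preparation, for 8 weeks, and the 3 rats of the DM group received saline. The labels mark the 3 DM arrays, and no HQYDP array, as a re-analysis, so a batch of arrays and the treatment cannot be told apart here. The deposited values were read as log2 values, since they ran from 0.352 to 13.59, and every difference is HQYDP minus DM on that scale. Proximal tubule markers had a mean log2 level of 10.41 to 10.87 in HQYDP and 10.60 to 10.89 in DM. None of these 6 passed the study thresholds, against 1.82 percent of all genes lower and 1.46 percent higher. These thresholds ask for a p under 0.05, unadjusted, with a fold change above 1.5, and the p is that of limma's moderated test. DM replicate 2 stood apart, at 39.5 on the first principal component of all genes, while DM replicate 1 lay at 17.9. DM replicate 3 lay at -14.9, among the HQYDP arrays at -10.6 to -16.2.

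Most collagen chain transcripts had a difference below zero, and some were lower in the HQYDP kidneys at the study thresholds. Col4a4, a chain of the glomerular basement membrane, was the only chain that lay higher in HQYDP without overlap between the groups. Of all genes 6.08 percent lay higher in this way, and Col4a4 stayed under the fold threshold. At the study thresholds 5 of 36 chains (13.9%) were lower in HQYDP compared with the DM group, against 1.82 percent of all genes. These were Col1a1 of the type I fibres, Col4a1 and Col4a2 of basement membranes, Col8a1 and Col15a1. No chain was higher at these thresholds, against 1.46 percent of all genes. No chain had an adjusted p under 0.05 from limma (lowest 0.421), against 0.0165 percent of all genes, while 7 chains (19.4%) had an unadjusted p under 0.05, as did 7.38% of all genes. The log2 difference was below zero in 24 of 36 chains (66.7%), and in 50.3% of all genes. Its median was -0.19 over the chains and 0.00 over all genes, and it ran from -1.18 for Col8a1 to 0.54 for Col4a4.

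**Figure D1:**
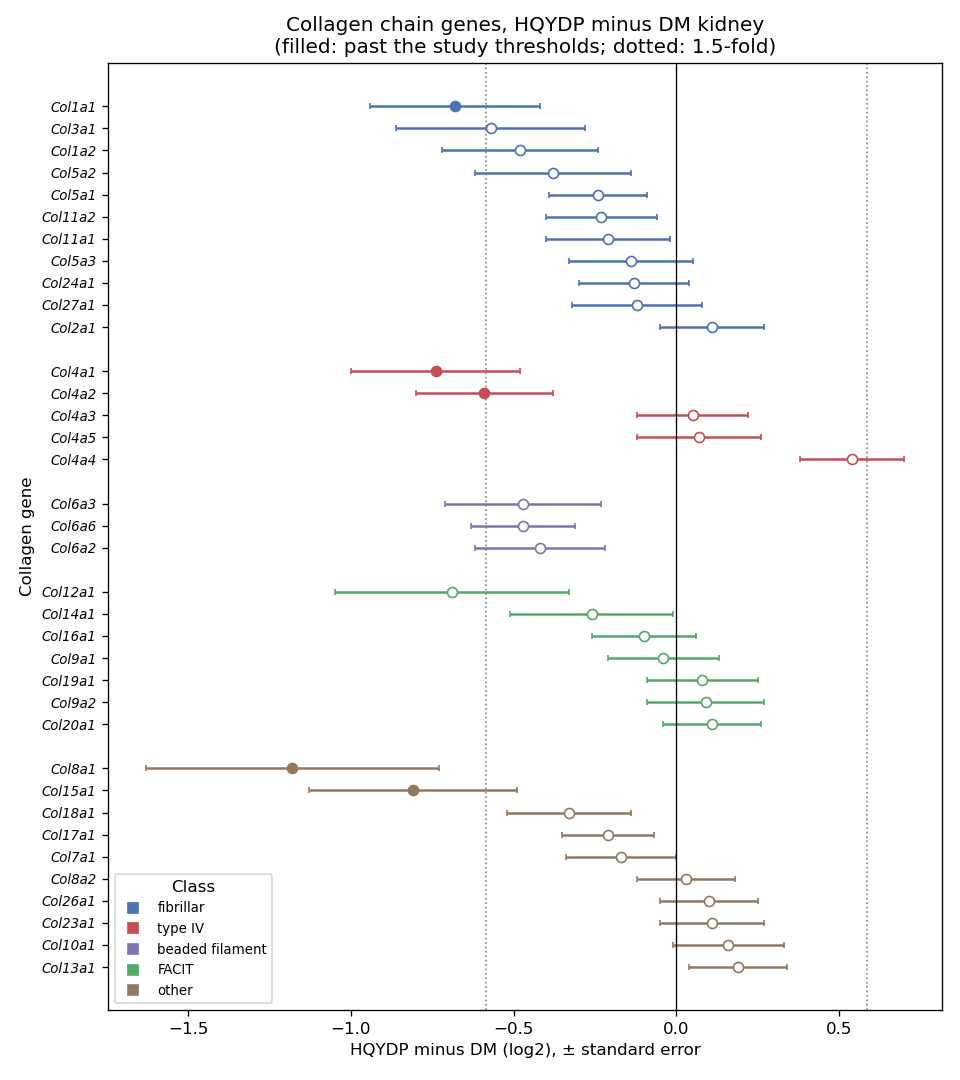
Log2 difference, HQYDP minus DM, of each of the 36 collagen chain genes by class, on the x axis, with its standard error from limma on 3 arrays against 3. Filled points passed the study thresholds, and all 5 of them lie left of zero, while Col4a4 lies at 0.54, inside the dotted 1.5-fold line.

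The groups were also compared array by array. In 7 chains every HQYDP array read below every DM array, against 6.01 percent of all genes. They were Col1a1, Col1a2, Col4a2, Col6a2, Col6a6, Col8a1 and Col17a1. In 1 chain, Col4a4, every HQYDP array read above every DM array, against 6.08 percent of all genes. The other 28 chains overlapped between the groups. Of the 25 chains with a mean log2 value over 5, 5 were lower at the study thresholds (20.0%) and the median was -0.33, compared with 2.39% and a median of -0.02 for all genes with such a mean. The 11 dimmer chains, such as Col10a1 and Col26a1, ran from -0.26 to 0.16, and none passed.

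All calls of lower chains were lost when replicate 2 of either group was left out, and some also hung on another array. Col8a1 did not pass without HQYDP replicate 3 (unadjusted p = 0.0518 from limma). Col15a1 did not pass without DM replicate 1 (unadjusted p = 0.0603 from limma). DM replicate 2 was the highest array in 17 of 36 chains (47.2%), compared with 20.7% of all genes, and HQYDP replicate 2 was the lowest in 22 chains (61.1%), compared with 15.8% of all genes. The mean deviation of the 36 chains from their own 6-array means was 0.00, -0.28 and -0.05 in HQYDP replicates 1 to 3 and 0.04, 0.28 and 0.02 in DM replicates 1 to 3. Thus replicate 2 of each group lay far out on its side, and the other 4 arrays lay between -0.05 and 0.04. Without DM replicate 2 none of the 36 chains was lower at the study thresholds, against 1.21 percent of all genes, and the same was true without HQYDP replicate 2, against 1.45 percent of all genes. Without DM replicate 2, 27 chains (75%) lay below zero, compared with 50.9% of all genes. Col4a3, Col8a2, Col9a2 and Col19a1 then turned to values below zero, and Col14a1 to a value above it. The median difference stayed at -0.19 without DM replicate 2 and was -0.07 without HQYDP replicate 2. With the methods' t-test, 0 chains passed, against 0.655 percent of all genes lower.

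**Figure D2:**
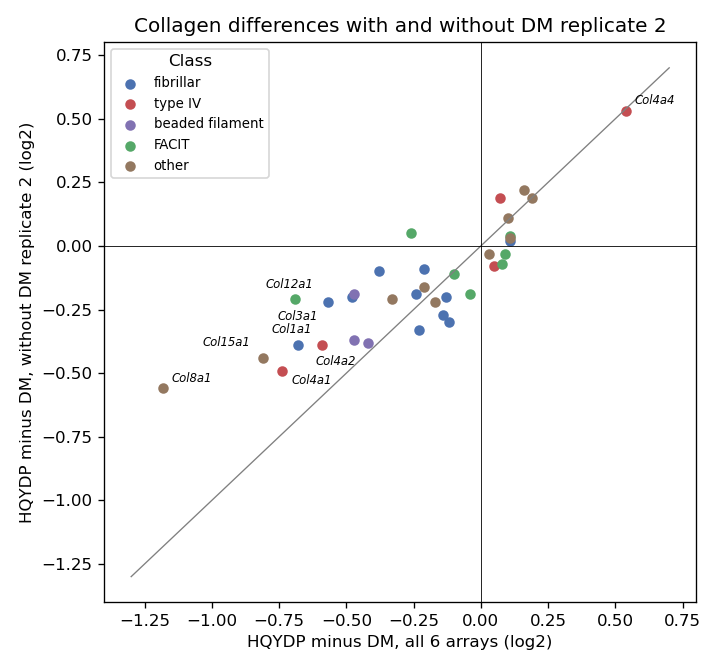
Log2 difference of each collagen chain with all 6 arrays (x axis) and without DM replicate 2 (y axis), with the line of equal values. The chains with the largest negative differences lie above the line, Col8a1 moving from -1.18 to -0.56, while Col4a4 stays on it at 0.54 and 0.53.

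Lists of fibroblast, leukocyte and immediate early genes also lay highest on DM replicate 2, but not all lay lowest on HQYDP replicate 2. Lower at the study thresholds were 1.82 percent of all genes, the share to set beside the counts of these lists. Of 9 fibroblast and myofibroblast markers, 3 were lower, namely Pdgfrb, Vim and Fn1. DM replicate 2 was the highest array in all 9, their mean log2 level was 6.53 to 6.86 in HQYDP and 6.85 to 8.08 in DM, and the list median went from -0.41 to -0.12 without that array. Of 9 macrophage and leukocyte markers, 7 were lower, and their mean level was 5.77 to 6.24 in HQYDP and 6.06 to 7.27 in DM. Of 8 immediate early genes (which tissue handling can also switch on), 7 were lower, with a mean level of 6.58 to 6.73 in HQYDP and 7.02 to 9.17 in DM. Without DM replicate 2 the counts of lower genes in these lists were 1, 0 and 5, against 1.21 percent of all genes. The leukocyte median then went from -0.84 to -0.49 and the immediate early median from -1.27 to -0.68. On DM replicate 2 these 3 lists lay 1.05, 0.92 and 1.87 above their 6-array means. On HQYDP replicate 2 they lay at -0.51, -0.58 and -0.57. In the immediate early list HQYDP replicates 1 and 3 lay lower still, at -0.72 and -0.65. DM replicate 1 lay at 0.01, 0.47 and 0.35 in the 3 lists, and DM replicate 3 lay at -0.18, -0.29 and -0.28. The part of these lists in the collagen differences was not tested. In RNA of bulk tissue fewer cells of a type and less RNA per cell cannot be told apart. Markers of urothelium and of fat, tissues that could be carried along, had 0 of 4 and 0 of 4 genes past the study thresholds, and so had those of endothelium and collecting duct. Since only 1.82 percent of all genes were lower and 1.46 percent higher, such short lists would seldom hold a call. Whether such tissue was carried along was not tested. The fat marker Adipoq nonetheless read higher in every HQYDP array than in any DM array, as did 6.08 percent of all genes. Its difference was 0.47 (unadjusted p = 0.0137 from limma).

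**Figure D3:**
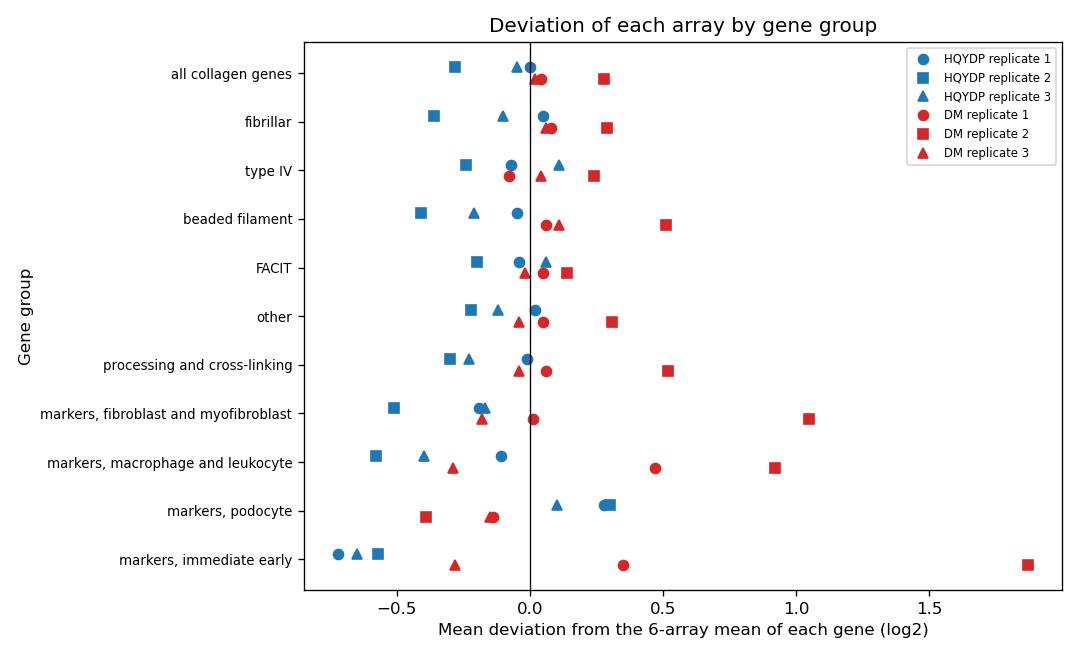
Mean deviation of each array from the 6-array mean of each gene (x axis, log2), for the collagen classes, the cross-linking list and 4 marker lists. DM replicate 2 (red square) lies farthest right in every collagen class, and at 1.05 in the fibroblast and 1.87 in the immediate early list.

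In the fibrillar class, 10 of 11 chains had a difference below zero, against 50.3% of all genes, and the class median was -0.23. Lower at the study thresholds was 1 chain, against 1.82 percent of all genes. Col1a1 encodes the α1 chain of type I collagen, the most abundant collagen of scar tissue. Its log2 value was 6.18, 5.55 and 5.99 in HQYDP replicates 1 to 3 and 6.39, 7.17 and 6.20 in DM replicates 1 to 3. All HQYDP values lay below all DM values, by a margin of 0.02 between the closest arrays. The HQYDP mean was 5.91 ± 0.32 and the DM mean 6.59 ± 0.51 (SD, n = 3 each). The difference of -0.68 (standard error 0.26) was a level 1.6 times as high in DM, with an unadjusted p = 0.0289 and an adjusted p = 0.588 from limma. Without DM replicate 2 it was -0.39. Col1a2, the partner chain of type I collagen, read 6.44, 6.15 and 6.40 in HQYDP and 6.49, 7.38 and 6.57 in DM. Its groups did not overlap either, but its difference of -0.48 (standard error 0.24, unadjusted p = 0.0681 and adjusted p = 0.728 from limma) did not pass, and was -0.20 without DM replicate 2.

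Col3a1, the only chain of type III collagen, which forms thin fibres together with type I, read 6.92, 6.31 and 6.67 in HQYDP and 6.80, 7.92 and 6.90 in DM. HQYDP replicate 1 lay above both DM replicates 1 and 3, so the groups overlapped. The difference was -0.57 (standard error 0.29, unadjusted p = 0.0794 and adjusted p = 0.75 from limma), just under the fold threshold, and -0.22 without DM replicate 2. Type V collagen sits inside type I fibres and sets their width. Its α2 chain Col5a2 read 5.45, 5.03 and 5.26 in HQYDP and 5.30, 6.18 and 5.38 in DM, a difference of -0.38 (standard error 0.24) that was -0.10 without DM replicate 2. Its α1 chain Col5a1 read 5.28, 5.01 and 5.11 in HQYDP and 5.39, 5.49 and 5.24 in DM, a difference of -0.24 (standard error 0.15). In this row of Col5a1, unlike the chains above, DM replicate 2 stood little above DM replicate 1. Another row of Col5a1 gave the same difference, -0.24, but with another order of the DM arrays, at 5.40, 5.11 and 5.38. There DM replicate 2 was the lowest DM array and lay below HQYDP replicate 3, at 5.13. The remaining 6 fibrillar chains, which include the cartilage chains Col2a1, Col11a1 and Col11a2, ran from -0.23 to 0.11 and none passed. HQYDP replicate 2 was the lowest array in 10 of the 11 fibrillar chains, compared with 15.8% of all genes.

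**Figure D4:**
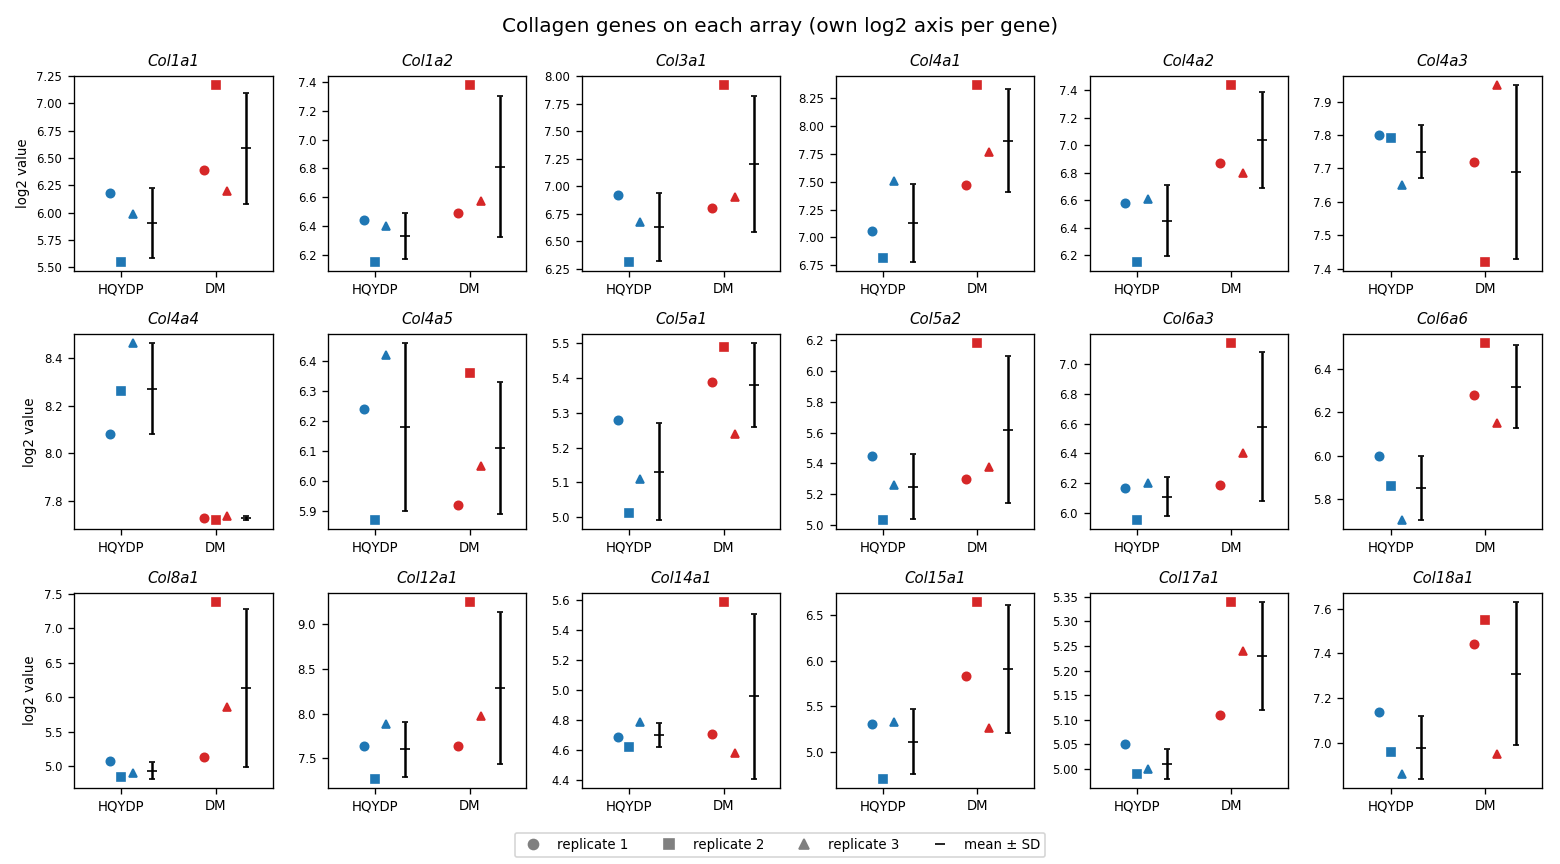
Log2 value of 18 collagen chains on each array, HQYDP in blue and DM in red, with the mean and SD of each group (n = 3) and a separate y axis for each gene. In Col1a1, Col3a1, Col12a1 and Col8a1 DM replicate 2 (square) lies far above DM replicates 1 and 3, whereas the 3 DM values of Col4a4 lie between 7.72 and 7.74.

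The type IV chains ran from -0.74 to 0.54, with a class median of 0.05. In vertebrates the α1 and α2 chains form the network of nearly all basement membranes. The α3, α4 and α5 chains form the network of the mature glomerular basement membrane, which podocytes produce and whose loss causes Alport syndrome in humans. Col4a1 read 7.06, 6.82 and 7.51 in HQYDP and 7.47, 8.37 and 7.77 in DM. HQYDP replicate 3 lay just above DM replicate 1, the only overlap. Its difference was -0.74 (standard error 0.26), 1.67 times as high in DM, with an unadjusted p = 0.0163 and an adjusted p = 0.508 from limma. Col4a2 read 6.58, 6.15 and 6.61 in HQYDP and 6.87, 7.44 and 6.80 in DM, without overlap. Its difference was -0.59 (standard error 0.21), 1.5 times as high in DM and only just past the fold threshold, with an unadjusted p = 0.0207 and an adjusted p = 0.539 from limma. In both genes HQYDP replicate 2 was the lowest of all arrays and DM replicate 2 the highest. Without DM replicate 2 the differences were -0.49 and -0.39.

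Col4a4 had the lowest p of the 36 chains. It read 8.08, 8.26 and 8.46 in HQYDP and 7.73, 7.72 and 7.74 in DM, so that the lowest HQYDP array lay 0.34 above the highest DM array. The HQYDP mean was 8.27 ± 0.19 and the DM mean 7.73 ± 0.01 (SD, n = 3 each). The difference of 0.54 (standard error 0.16) was 1.45 times as high in HQYDP, with an unadjusted p = 0.00647 and an adjusted p = 0.421 from limma, and so it stayed under the fold threshold. It ran from 0.44 to 0.63 when each array was left out in turn, and passed both thresholds only without HQYDP replicate 1. Col4a3, whose chain joins that of Col4a4, read 7.80, 7.79 and 7.65 in HQYDP and 7.72, 7.42 and 7.95 in DM. Its groups overlapped, and its difference was 0.05 (standard error 0.17), or -0.08 without DM replicate 2. Col4a5, on the X chromosome, read 6.24, 5.87 and 6.42 in HQYDP and 5.92, 6.36 and 6.05 in DM, a difference of 0.07 (standard error 0.19) with overlap. The 3 measured podocyte markers also lay higher in every HQYDP array than in any DM array, against 6.08 percent of all genes. The differences were 0.49 for nephrin Nphs1, 0.47 for podocalyxin Podxl and 0.39 for Wt1. Their unadjusted p from limma were 0.0187, 0.0149 and 0.0389, none reached a fold of 1.5, and their mean log2 level was 7.66 to 7.86 in HQYDP and 7.18 to 7.43 in DM. Their part in the value of Col4a4 was not tested.

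Type IV genes lie in pairs that are read away from each other from neighbouring start sites. In RefSeq (GRCr8) the starts of Col4a1 and Col4a2 lay 77 bases apart on chromosome 16, those of Col4a3 and Col4a4 lay 413 bases apart on chromosome 9, and those of Col4a5 and Col4a6 lay 1415 bases apart on chromosome X. Windows from 250 bases before to 50 bases after a start were found for 30 of the 36 chains. The windows of Col4a1 and Col4a2 shared 176 bases, and those of Col4a3 and Col4a4 shared 88 bases. Of 27457 genes with a window, 10.4% overlapped the window of another gene on the opposite strand. The pair with the shorter distance held the 2 chains that were lower together, and the other pair held Col4a3, at 0.05, and Col4a4, at 0.54. The windows of Col4a1 (chr16:84885347-84885646, plus strand, GRCr8), whose positions 125 to 300 also lie in the Col4a2 window, and of Col4a4 (chr9:91323528-91323827, minus strand, GRCr8) are shown because they belong to the type IV chains with the lowest and the highest difference. Capitals mark CCAAT and the GC box GGGCGG, read on both strands. TATAAA was searched too.
Col4a1: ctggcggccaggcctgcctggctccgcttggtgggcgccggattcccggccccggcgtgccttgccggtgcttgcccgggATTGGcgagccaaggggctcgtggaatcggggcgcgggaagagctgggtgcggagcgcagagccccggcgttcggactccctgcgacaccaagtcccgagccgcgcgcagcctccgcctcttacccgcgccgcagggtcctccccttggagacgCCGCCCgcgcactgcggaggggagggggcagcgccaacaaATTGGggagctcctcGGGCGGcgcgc
Col4a4: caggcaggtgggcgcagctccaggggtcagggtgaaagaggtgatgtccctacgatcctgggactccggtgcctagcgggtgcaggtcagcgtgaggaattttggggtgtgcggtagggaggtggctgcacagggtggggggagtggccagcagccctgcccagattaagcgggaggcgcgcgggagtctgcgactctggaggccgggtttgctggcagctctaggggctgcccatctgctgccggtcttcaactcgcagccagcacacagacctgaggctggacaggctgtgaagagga

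The Col4a1 window held 2 matches to CCAAT and 2 to GGGCGG, and the Col4a4 window held none of the 3 motifs. Over the 30 chains, 8 had CCAAT, 18 had GGGCGG and 4 had TATAAA. Of all 33469 windows, 37.5% held CCAAT, 33.1% held GGGCGG and 14.2% held TATAAA. A match is a run of letters and not a site shown to be used.

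**Figure D5:**
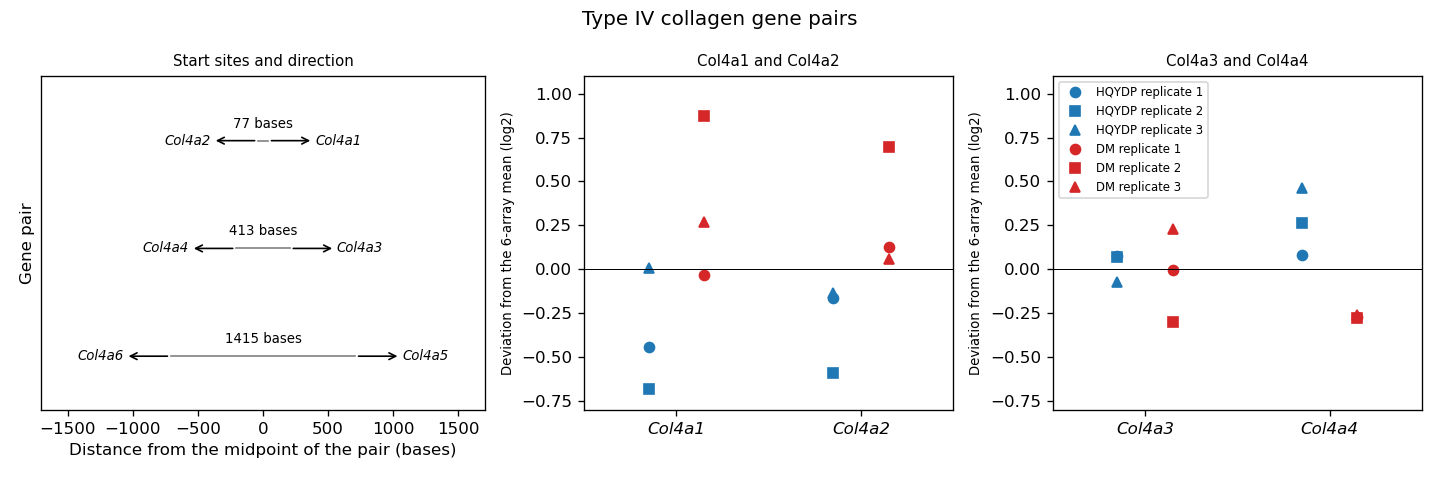
Left, start sites of the 3 type IV gene pairs to scale on the x axis (bases from the midpoint of each pair), with arrows for the direction of transcription. Middle and right, deviation of each array from the 6-array mean of the gene (log2). In Col4a1 and Col4a2 HQYDP replicate 2 lies lowest and DM replicate 2 highest. In Col4a3 and Col4a4 DM replicate 2 lies lowest, though in Col4a4 all DM arrays lie between 7.72 and 7.74. The highest array is DM replicate 3 in Col4a3 and HQYDP replicate 3 in Col4a4.

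All 3 measured chains of the beaded filaments, which link cells and basement membranes to the stroma, lay below zero, with a median of -0.47, and none passed the fold threshold. Col6a6 read 6.0, 5.86 and 5.70 in HQYDP and 6.28, 6.52 and 6.15 in DM. Its groups did not overlap, and its difference of -0.47 (standard error 0.16) had an unadjusted p = 0.0181 and an adjusted p = 0.523 from limma. It rested less on DM replicate 2, and was -0.37 without it. Col6a3 read 6.17, 5.95 and 6.20 in HQYDP and 6.19, 7.14 and 6.40 in DM, and HQYDP replicate 3 lay just above DM replicate 1. The difference of Col6a3 was also -0.47 (standard error 0.24), but -0.19 without DM replicate 2. Col6a2 had -0.42 (standard error 0.20) without overlap, and HQYDP replicate 2 was its lowest array at 5.22. Of all genes, 50.3% had a difference below zero and 6.01 percent lay lower in HQYDP without overlap.

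Of the 7 FACIT chains none passed, against 1.82 percent of all genes lower and 1.46 percent higher, and the class median was -0.04. Col12a1, whose collagen lies on type I fibres of dense tissue, read 7.64, 7.27 and 7.88 in HQYDP and 7.64, 9.25 and 7.97 in DM. A single array, DM replicate 2, made most of this difference, which was -0.69 (standard error 0.36, unadjusted p = 0.0879 and adjusted p = 0.764 from limma) with it and -0.21 without it. Col14a1, a relative of Col12a1 on the same fibres, read 4.69, 4.62 and 4.79 in HQYDP and 4.71, 5.59 and 4.58 in DM. Here the difference of -0.26 (standard error 0.25) turned to 0.05 without DM replicate 2. The 5 remaining FACIT chains, Col9a1, Col9a2, Col16a1, Col19a1 and Col20a1, ran from -0.10 to 0.11.

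The class of other collagens held the largest difference of all 36 chains and a median of only -0.07. Col8a1 encodes a short-chain collagen of vessel walls and of endothelial basement membranes. It read 5.08, 4.85 and 4.90 in HQYDP and 5.14, 7.38 and 5.86 in DM. The HQYDP values lay close together, while the DM values were spread from 5.14 to 7.38. The HQYDP mean was 4.94 ± 0.12 and the DM mean 6.13 ± 1.14 (SD, n = 3 each). The difference of -1.18 (standard error 0.45) was a level 2.27 times as high in DM, with an unadjusted p = 0.0257 and an adjusted p = 0.575 from limma. Without DM replicate 2 it was -0.56 (unadjusted p = 0.0397 from limma), just under the fold threshold. Its partner chain Col8a2 had 0.03 (standard error 0.15). Col15a1 and Col18a1 are the basement membrane collagens that carry sugar chains and release fragments that inhibit vessel growth. Col15a1 read 5.30, 4.70 and 5.33 in HQYDP and 5.83, 6.65 and 5.26 in DM, and HQYDP replicates 1 and 3 lay above DM replicate 3. Its difference was -0.81 (standard error 0.32), 1.75 times as high in DM, with an unadjusted p = 0.0328 and an adjusted p = 0.603 from limma, and -0.44 without DM replicate 2. Col18a1 read 7.14, 6.96 and 6.86 in HQYDP and 7.44, 7.55 and 6.95 in DM, a difference of -0.33 (standard error 0.19) with overlap. Col17a1, a membrane-spanning collagen of epithelia, read 5.05, 4.99 and 5.0 in HQYDP and 5.11, 5.34 and 5.24 in DM. These groups did not overlap, but the difference of -0.21 (standard error 0.14) was small and did not pass. The remaining 5 chains of this class ran from -0.17 for Col7a1 to 0.19 for Col13a1.

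The windows of Col8a1 (chr11:56246532-56246831, plus strand, GRCr8) and Col15a1 (chr5:66297296-66297595, plus strand, GRCr8) are shown because these chains had the largest differences, with capitals for the same motifs.
Col8a1: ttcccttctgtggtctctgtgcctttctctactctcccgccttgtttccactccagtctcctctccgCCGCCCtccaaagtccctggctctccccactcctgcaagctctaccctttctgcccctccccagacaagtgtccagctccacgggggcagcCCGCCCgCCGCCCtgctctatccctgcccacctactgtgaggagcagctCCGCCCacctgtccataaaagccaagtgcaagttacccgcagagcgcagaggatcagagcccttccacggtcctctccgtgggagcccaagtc
Col15a1: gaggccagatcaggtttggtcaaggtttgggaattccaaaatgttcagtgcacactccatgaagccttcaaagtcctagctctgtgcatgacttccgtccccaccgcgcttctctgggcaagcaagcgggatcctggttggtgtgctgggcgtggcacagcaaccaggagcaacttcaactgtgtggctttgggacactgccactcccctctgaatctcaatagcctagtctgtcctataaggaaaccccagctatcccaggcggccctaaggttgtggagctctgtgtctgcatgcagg

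The Col8a1 window held 4 matches to GGGCGG and no other motif, and the Col15a1 window held none of the 3.

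Collagen chains are modified and folded in the endoplasmic reticulum, trimmed outside the cell, cross-linked, bound by receptors and broken down, and the genes of these steps were listed too. Of 16 measured genes of chain modification and folding, none passed the study thresholds, and the median was -0.10. Of all genes, 1.82 percent were lower and 1.46 percent higher at these thresholds, and 6.01 percent lay lower in HQYDP without overlap. Fkbp10, a collagen chaperone, had the largest difference in this list, -0.55 (standard error 0.19) without overlap, with an unadjusted p = 0.0174 and an adjusted p = 0.515 from limma. The collagen-specific chaperone Serpinh1 had -0.32 (standard error 0.15), without overlap.

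Of 13 measured genes of processing and cross-linking, 3 were lower and none was higher, with a median of -0.29. Of all genes 1.82 percent were lower and 1.46 percent higher. Bmp1 encodes the proteinase that removes the C-terminal propeptide of fibrillar collagens. It read 5.70, 5.26 and 5.16 in HQYDP and 6.26, 6.32 and 5.81 in DM, and the groups did not overlap. The difference of -0.76 (standard error 0.20) had an unadjusted p = 0.00427 and an adjusted p = 0.364 from limma. Unlike the 5 lower chains, Bmp1 kept its call when any 1 array was left out, with -0.66 without DM replicate 2, and it was the only gene of the list to pass with the methods' t-test. Bmp1 is among the genes selected by the study from these arrays, so its call is not independent evidence. Loxl1, an oxidase that starts the cross-links, read 7.31, 6.48 and 6.72 in HQYDP and 7.64, 9.02 and 7.26 in DM. Its difference of -1.13 (standard error 0.41, unadjusted p = 0.0195 and adjusted p = 0.529 from limma) went to -0.61 without DM replicate 2. Pxdn, the peroxidase that forms the sulfilimine bonds of type IV collagen, read 3.99, 4.02 and 3.90 in HQYDP and 4.35, 5.16 and 4.45 in DM. Its groups did not overlap, its difference was -0.68 (standard error 0.22, unadjusted p = 0.0106 and adjusted p = 0.466 from limma), and it was -0.43 without DM replicate 2. Lox had -0.78 and Loxl2 had -0.63, with unadjusted p of 0.0855 and 0.0775 from limma, and neither passed.

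Of 8 measured collagen receptors none passed, with a median of -0.22. The largest differences were -0.51 (standard error 0.35) for the integrin Itga11 and -0.46 (standard error 0.21) for the receptor kinase Ddr1, and Ddr1 alone passed, at -0.65, without DM replicate 2. Of 8 genes of collagen breakdown, 2 were lower and none was higher, against 1.82 and 1.46 percent of all genes, with a median of -0.20. Mmp14, a membrane-bound collagenase, read 6.19, 5.88 and 5.91 in HQYDP and 6.80, 7.16 and 6.27 in DM, without overlap. Its difference was -0.75 (standard error 0.23), with an unadjusted p = 0.00841 and an adjusted p = 0.448 from limma, and -0.54 without DM replicate 2. Mmp2, the gelatinase that Mmp14 activates, read 5.81, 5.74 and 5.58 in HQYDP and 6.08, 7.67 and 6.04 in DM, without overlap, and its difference of -0.89 (standard error 0.38, unadjusted p = 0.0414 and adjusted p = 0.642 from limma) went to -0.35 without DM replicate 2. Only 4 of the 8 breakdown genes lay below zero, and Mmp9, another gelatinase, had 0.45 (standard error 0.26) and the collagenase Mmp13 had 0.28 (standard error 0.20), both with overlap. The protein content of the matrix was not measured on these arrays.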

How the data were processed

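Kidney RNA of 3 HQYDP and 3 DM rats was hybridized to Affymetrix Rat Gene 2.0 ST arrays. The authors deposited log2 values per transcript. How the values were summarized and normalized, on which genome build and with which log base is not given in the sources read. Base 2 was inferred from the range. Of 36685 rows, 18511 had 1 gene symbol. Where a gene had several such rows, the brightest on average was used, which gave 18166 genes, dim ones included. A two-sided moderated test (limma 3.58.1, R 4.3.3) compared the groups, with p adjusted by Benjamini-Hochberg across these genes. Calls used the thresholds of the study, p under 0.05 before adjustment with a fold above 1.5. The script was tested on simulated data. The number of arrays limits the precision.

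The members, classes, lists and tests were chosen with earlier results of these data known. Per-array values are given for the type I, III and IV chains, for chains past the thresholds, and for the 2 other members of each class with the largest difference. They are also given for genes past the thresholds in the processing and breakdown lists. Marker genes past the thresholds are given by counts, and only in part by name. Col8a2, Lox, Loxl2, Mmp9, Mmp13 and Adipoq were added after their values were seen. Symbols and Entrez IDs of all 36 chains matched RefSeq (GRCr8), which also gave the sequences. The comparison was repeated with each array left out, with other tests (the methods' t-test, Welch's test, limma with an intensity trend, with array weights or with a replicate block), with quantile normalization or median centring, without dim genes, with all rows of a gene averaged, and with other fold rules. Arrays of other groups were not analysed here.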

Additional observations from a re-analysis of the deposited data

How the results depend on the processing

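The count of 5 lower chains held with an intensity trend, median centring, a filter at a mean log2 value of 5 and the mean of all rows of a gene, and was 4 with quantile normalization. Among genes above the median of all gene means it was 3 (median difference then -0.47). That filter removed Col8a1 and Col15a1, and the other 3 calls held. The count was 0 with the methods' t-test, 0 with Welch's test, 3 with array weights and 1 with a fold over 2. With 1 array left out it ran from 0 to 8, with 0 without HQYDP replicate 2, 0 without DM replicate 2 and 8 without DM replicate 1. The count of higher chains was 1 (Col4a4) with no fold rule and ran from 0 to 1 with 1 array left out. The count with an adjusted p under 0.05 was 0 in every setting run. The median difference ran from -0.27 to -0.07 with 1 array left out. Of 317 repeats over 18 named chains, 276 kept direction and call, 29 lost the call, 8 gained it and 4 changed sign. All 29 losses fell on the 5 lower chains, since the other named chains had no call to lose. Most of the 276 belong to chains without a call, so they do not measure how steady the calls were. With 1 array left out, Col4a3 ran from -0.08 (without DM replicate 2) to 0.18, Col14a1 from -0.45 to 0.05 (without DM replicate 2), and Col4a5 from -0.05 (without HQYDP replicate 3, with -0.03 without DM replicate 1) to 0.22. The causes were not tested. Replicate numbers are shared by the groups, and deviations of same-numbered arrays correlated at 0.1423, -0.08319 and 0.2101. Over all combinations of an HQYDP and a DM array the correlation ran from -0.3542 to 0.224. With 3 arrays per group these values cannot show whether the rats were paired, and the main test used no pairing. With the replicate block 5 chains were lower, none was higher, none had an adjusted p under 0.05, and the median was -0.19. No detection values were used, so how far the dim chains lie above background is unknown.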
